A study of Mus musculus with 9 samples.

Results

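Hmgcs1 and Insig1 are 2 genes of sterol metabolism among the 217 genes that the deposited tables of this study list. They were chosen by name from the tables, whose genes had been selected on measured values, a log2 fold of at least 1 and a p under 0.05 in the authors' own comparison, so every row is a gene higher in the first group. The 9 RNA-seq libraries, in 3 groups of 3, were made from Hepa1-6, a line of mouse hepatocarcinoma cells labelled as wild type. Control cells are labelled as untreated, and the series description names PBS for them. Cells of another group were given the material P-Por-Os at 25.57 µg/mL, and in the group P-Por-Os+US the same dose was combined with ultrasound. No group received ultrasound without P-Por-Os, and the labels give no time after treatment and no ultrasound setting. Hmgcs1 was listed in P-Por-Os+US against control only, so its values were given for those 6 libraries. Of all genes tested, the authors' deposited tables list 0.403 percent for that comparison, 1.05 percent for P-Por-Os against control and 0.179 percent for P-Por-Os+US relative to P-Por-Os. The number of genes tested behind these shares is an estimate. Insig1 was listed in P-Por-Os+US relative to control and relative to P-Por-Os alone, and these tables together give its level in all 9 libraries.

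Cells make cholesterol from acetyl-CoA. Hmgcs1 encodes the cytosolic HMG-CoA synthase, which joins acetyl-CoA to acetoacetyl-CoA early in that route. Insig1 encodes a membrane protein of the endoplasmic reticulum that, when sterols are abundant, holds back the SCAP and SREBP complex and so keeps the SREBP transcription factors from reaching the nucleus. Both genes are known SREBP targets, so that the pathway makes its own brake, and the liver is a main site of cholesterol synthesis in the body.

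The sequences upstream of both genes are shown because the genes are known targets of the same transcription factors and were listed together. They come from RefSeq windows on GRCm38, which had an entry for 2 of the 2 genes, cut where the first annotated transcript starts. The Hmgcs1 sequence is chr13:119690101-119690350 on the plus strand and the Insig1 sequence is chr5:28071162-28071362 on the plus strand, 250 and 201 bases. Capitals mark the letters TCACNCCAC (a core of the sterol regulatory element), CACGTG (E-box), TGACGT (a half-site of the cAMP response element) and ATTGG (inverted CCAAT box), each searched on both strands.
Hmgcs1: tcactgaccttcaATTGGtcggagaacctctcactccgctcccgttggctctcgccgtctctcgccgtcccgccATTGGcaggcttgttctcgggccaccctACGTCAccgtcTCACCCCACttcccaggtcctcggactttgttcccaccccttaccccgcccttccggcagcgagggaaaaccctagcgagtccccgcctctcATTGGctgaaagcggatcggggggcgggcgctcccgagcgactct
Insig1: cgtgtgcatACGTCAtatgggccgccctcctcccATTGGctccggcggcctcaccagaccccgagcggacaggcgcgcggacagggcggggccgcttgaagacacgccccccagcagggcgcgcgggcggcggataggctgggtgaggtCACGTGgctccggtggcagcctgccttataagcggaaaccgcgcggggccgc

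The sterol regulatory core occurred once upstream of Hmgcs1, as TCACCCCAC on chromosome 13 from 119690214 to 119690222, and its shorter form CACCCCAC lies inside the same letters. No match to either form occurred in the Insig1 window of 300 bases. Of 32534 distinct RefSeq windows of that length, 1.24 percent held TCACNCCAC and 2.89 percent held CACCCCAC. Upstream of Insig1 an E-box stood from 28071311 to 28071316 on chromosome 5, and 7.17 percent of all windows held one. The cAMP half-site occurred once upstream of each gene and in 7.56 percent of all windows, and this motif was added after the sequences had been seen. ATTGG, read by the factor NF-Y, occurred 4 times in the Hmgcs1 window and 1 time in that of Insig1. At Hmgcs1, 1 of them lies past the RefSeq start, though before the start given below from GENCODE. Of all windows, 37.4 percent held at least 1. GGGCGG, a GC box, occurred 3 times in each window and in 35.9 percent of all windows. The Hmgcs1 match from 119690383 to 119690388 lies past both starts. Of the forms TGCACNC and TGCGCNC of the metal response element, only TGCACNC was found, once at Insig1, and they occurred in 12.6 and 15.5 percent of all windows. Among 20 windows of 17 cholesterol synthesis enzymes, 16 held ATTGG, 16 held GGGCGG and 1, that of Hmgcs1, held TCACNCCAC. These are matches of letters and not measured binding sites.

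Hmgcs1 (ENSMUSG00000093930.2) lies on the plus strand of chromosome 13 from 119690379 to 119708260 and Insig1 (ENSMUSG00000045294.11) on the plus strand of chromosome 5 from 28071363 to 28078662, both protein-coding in GENCODE M21 on GRCm38. The RPKM values (reads divided by gene length and by the total of the library) mostly fell on whole multiples of 1 read, where the sources used here do not say whether a read pair counts once. At the library totals found from all listed genes, between 34741340 and 37667590 reads, 84.7 to 90.2 percent of the values under 400 reads were whole within 0.05. Every Insig1 value was a whole number of reads, within 0.0033, at the annotated exonic length of 3093 bases. For Hmgcs1 no length met that tolerance of 0.05. The length that came closest to whole reads, with a largest deviation of 0.053, was 3233 bases, and its reads are approximate values at that length rather than at the 4594 bases that all its annotated exons cover. The model Gm48342 runs antisense over 557 exonic bases of Hmgcs1. The libraries were stranded per the labels' protocols, but the strand setting of the counting is not given in the sources used here, so reads of both models over that stretch cannot be told apart. Words of 31 bases found also in transcripts of other genes made up 13.1 percent of the annotated Hmgcs1 transcripts and 3.46 percent of those of Insig1.

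Hmgcs1 was the more abundant of the pair. In control it stood at 12.3, 13.0 and 15.2 RPKM in replicates 1, 2 and 3, or 1497, 1516 and 1731 reads. After P-Por-Os+US it stood at 26.7, 27.2 and 31.7 RPKM, or 3015, 3130 and 3566 reads. The groups did not overlap, and the lowest P-Por-Os+US library was at 1.75 times the highest control library. Such separation was found for 59 of the 61 genes of the table, or 96.7 percent. Selection on fold and p favours it, so nothing is read from this share. The means were 28.6 ± 2.78 and 13.5 ± 1.54 RPKM (SD, n = 3 each), a ratio of 2.12. The coefficients of variation between libraries, 9.73 percent after P-Por-Os+US and 11.4 percent in control, exceeded the 1.76 and 2.52 percent that counting error alone would give at these reads. In bulk RNA, more cells that express a gene and more RNA per cell cannot be told apart. Separate cultures are not named in the labels, so this spread, and any test on it, may be technical. Hmgcs1 was not listed in the other comparisons, and its level after P-Por-Os alone was not analysed here.

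Insig1 was low throughout. Control replicates 1, 2 and 3 stood at 0.644, 0.742 and 0.865 RPKM, or 75, 83 and 94 reads. After P-Por-Os alone the replicates stood at 0.954, 0.738 and 0.791 RPKM, or 108, 82 and 88 reads. These groups overlapped. After P-Por-Os+US the values were 1.60, 1.48 and 2.04 RPKM, or 173, 163 and 219 reads, and every one of these libraries lay above all 6 others. All genes listed relative to P-Por-Os, 27 of 27 or 100 percent, were separated from the P-Por-Os libraries in this way, which selection on fold and p favours. The means in ascending order were 0.750 ± 0.111 RPKM in control, 0.828 ± 0.112 after P-Por-Os and 1.71 ± 0.293 after P-Por-Os+US (SD, n = 3 each). The mean after P-Por-Os+US was 2.28 times that of control and 2.06 times that of P-Por-Os, and both ratios use the same P-Por-Os+US libraries. Counting error is a large part of the precision here. The 75 reads of control replicate 1 have an exact 95 percent Poisson interval of 59.0 to 94.0, or 0.506 to 0.807 RPKM, and the 219 reads of P-Por-Os+US replicate 3 one of 191 to 250, or 1.78 to 2.33 RPKM. Such intervals cover counting error only. Between libraries the coefficients of variation were 14.7, 13.6 and 17.1 percent in control, P-Por-Os and P-Por-Os+US, beside 10.9, 10.4 and 7.40 percent from counting alone.

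**Figure D1:**
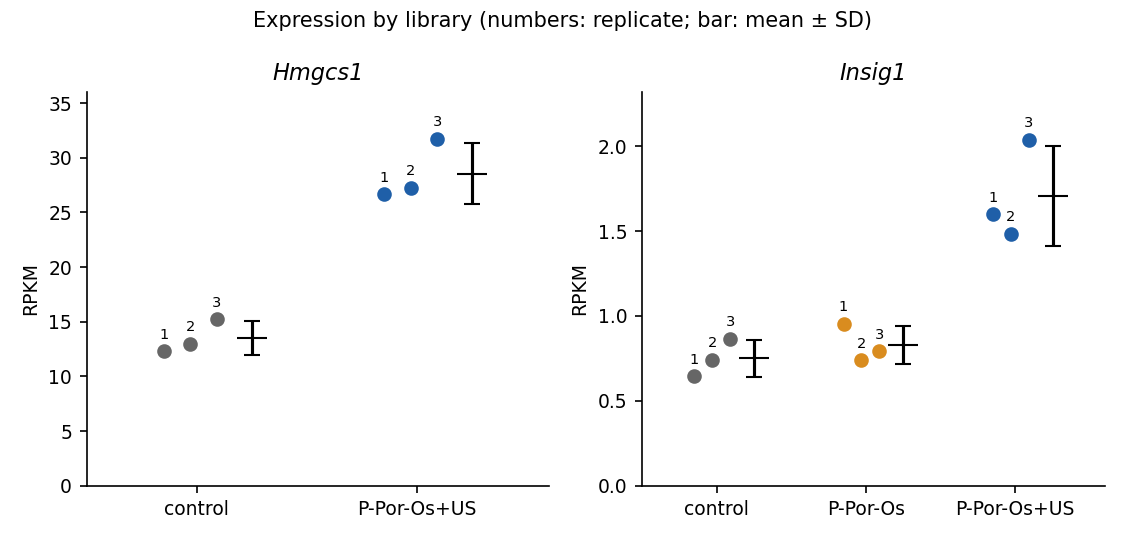
RPKM of Hmgcs1 (left) and Insig1 (right) in each library, numbered by replicate, with the mean and SD of each group of 3 as a bar to the right of its points. Hmgcs1 has values for control and P-Por-Os+US only. The P-Por-Os+US libraries lie above all others for both genes, from 26.7 RPKM up for Hmgcs1 and from 1.48 RPKM up for Insig1, and the Insig1 points of control and P-Por-Os overlap.

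The differences just given chose the genes, so no test of them was made, and the authors' own values are stated as the values that chose them. For Hmgcs1 in P-Por-Os+US against control, the authors' deposited table gives a log2 fold of 1.02, a p of 6.4e-11 and an adjusted p of 1.2e-07. For Insig1 the authors' deposited table gives a log2 fold of 1.13, a p of 4.4e-06 and an adjusted p of 7.9e-05 in that comparison. Against P-Por-Os, the authors' deposited table gives Insig1 a log2 fold of 1.11, a p of 1.3e-06 and an adjusted p of 4.0e-05. Hmgcs1 thus ranked 3 of 61 by p but 55 of 61 by fold in the authors' deposited table, and 7 of 61 by mean RPKM, so that a small fold was joined to a high level. Insig1 ranked 23 by p, 35 by fold and 40 by level among the same 61, and 10, 17 and 20 among the 27 genes listed relative to P-Por-Os. All these ranks are among listed genes only. If the authors adjusted by Benjamini-Hochberg, their p and adjusted p for Insig1 imply that many genes not listed had a smaller p in both comparisons. With Bonferroni adjustment over all genes tested, Hmgcs1 passed in P-Por-Os+US against control and Insig1 did not. Relative to P-Por-Os, Insig1 passed. Genes that were both listed and passing made up 0.139 and 0.0663 percent of all genes tested in these comparisons. Genes that passed without being listed are not in these shares, so they are lower bounds and how rare passing was is not known from them. Relative to P-Por-Os, genes with a smaller p than Insig1 passed too, listed or not. By the p and adjusted p of Insig1 these were many, so 0.0663 percent is far below the share that passed.

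Listing asked for a log2 fold of at least 1 and a p under 0.05, and Hmgcs1 lay close to that minimum. The smallest fold of the same authors' deposited table was the 1.00 of Cry1, a repressor of the circadian clock. Next to Hmgcs1 were Mir5117 at 1.02 below and Gm37646 at 1.03 above, and next to Insig1 were Cxcl5, a neutrophil chemokine, at 1.12 below and Gm12609 at 1.13 above, on the same log2 scale of the authors' deposited table. In the authors' deposited table against P-Por-Os, Insig1 stood between Gm15795 at 1.11 and Gm43627 at 1.12, also as log2 folds. Genes just outside the minimum were not analysed here. Without P-Por-Os+US replicate 3, the log2 ratio of mean RPKM was 0.998 for Hmgcs1, against 1.08 with all libraries, and for Insig1 against P-Por-Os it was 0.90, against 1.04. Without P-Por-Os replicate 2 the latter was 0.97.

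**Figure D2:**
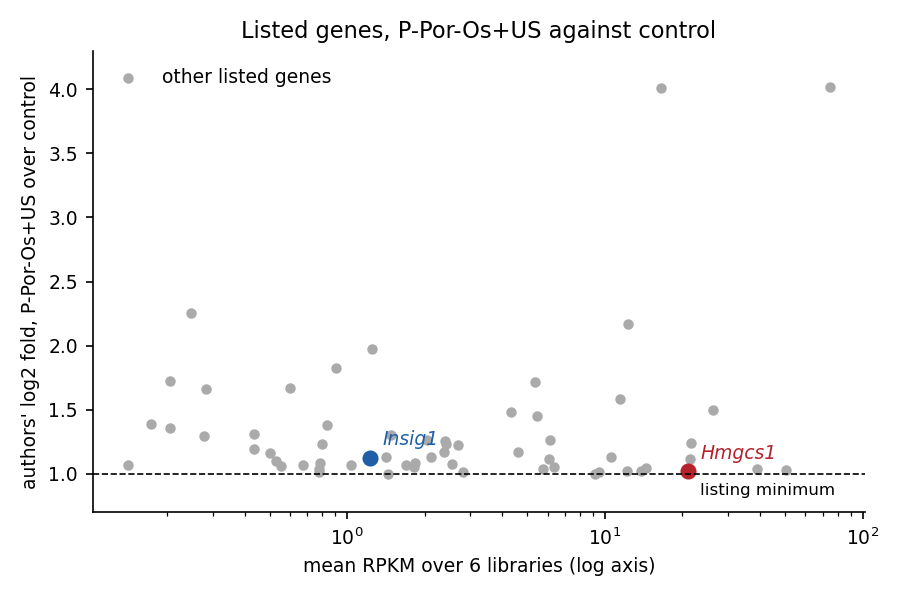
Each point is 1 of the 61 genes listed for P-Por-Os+US against control, with its mean RPKM over the 6 libraries on a log axis and the log2 fold from the authors' deposited table. The dashed line is the listing minimum of 1. Hmgcs1 lies just above that line at a high level, and Insig1 lies at a log2 fold of 1.13 in the lower range of levels.

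Insig1 after P-Por-Os alone against control is the comparison of these genes that no listing used, though it shares its libraries with those that did. The difference was 0.13 ± 0.16 (SE) on the log2(RPKM + 0.1) scale, with a 95 percent interval from -0.21 to 0.47, in limma on the 28 genes with values in all 9 libraries. The limma adjusted p was 0.48, with 1 of 3 P-Por-Os libraries above the highest control library. An exact two-sided permutation test of the RPKM values gave a p of 0.5, where 3 libraries against 3 can give 0.1 at the least. A difference was therefore not detected at this depth, and the interval ends below the listing minimum of 1. However, Insig1 was not listed for this comparison and was listed in both others. A small difference follows in part from that pattern of listing, so the test is not independent evidence of no change. In the same fit 22 of 28 genes, 78.6 percent, had an adjusted p under 0.05, but 21 of the 28 had been listed for this very comparison, so the share describes the selection. The authors' log2 folds for P-Por-Os against control were lower than ratios of mean RPKM by a median of 0.12, and with that shift applied the Insig1 difference was 0.0077.

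Both genes were listed for P-Por-Os+US against control, each for a rise past the same minimum fold, so a similar proportion of their levels in these groups follows largely from how they were chosen. It is given as a description. Hmgcs1 over Insig1, each in RPKM and so per length, was 19.1, 17.5 and 17.6 in control replicates 1, 2 and 3, and 16.7, 18.4 and 15.6 after P-Por-Os+US. The means of this ratio were 18.1 ± 0.898 in control and 16.9 ± 1.41 after P-Por-Os+US (SD, n = 3 each), and the groups overlapped. In each of these groups the same library was the highest for both genes. Control replicate 3 was above its group mean by 0.18 for Hmgcs1 and 0.19 for Insig1 on the log2(RPKM + 0.1) scale, and P-Por-Os+US replicate 3 by 0.16 and 0.25. These libraries were also the highest of their group for many other listed genes, 41 of 61 for control replicate 3 and 34 of 61 for P-Por-Os+US replicate 3. The median deviation of the 61 genes was 0.20 in the former and 0.07 in the latter, and its part in the values of Hmgcs1 and Insig1 was not tested.

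**Figure D3:**
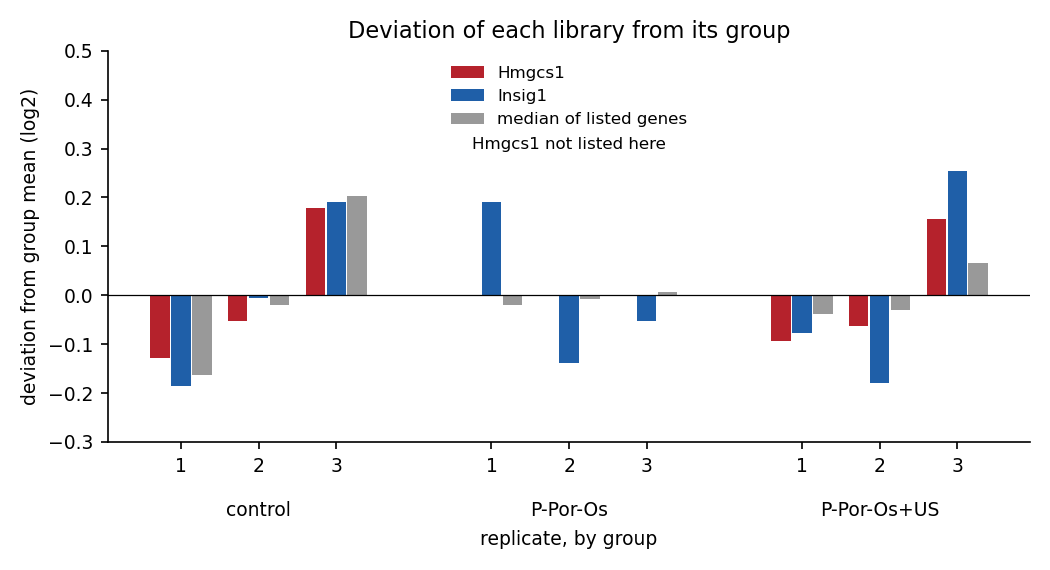
Bars give the deviation of each library from its group mean on the log2(RPKM + 0.1) scale, for Hmgcs1, Insig1 and the median of the listed genes, which are the 61 of P-Por-Os+US against control for those groups and the 27 of P-Por-Os+US relative to P-Por-Os for P-Por-Os. In control the 3 measures deviate alike, and in P-Por-Os+US replicate 3 Insig1 (0.25) and Hmgcs1 (0.16) lie further from their means than the median (0.07).

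Likeness of pattern was measured as the root mean square difference between log2((RPKM + 0.1)/(control mean + 0.1)) of a gene and of Hmgcs1 or Insig1 over libraries. Over 6 libraries and 60 other genes, the 5 closest to Hmgcs1 were 9830144P21Rik at 0.047, Emp1, an epithelial membrane protein, at 0.060, Slc20a1, a phosphate transporter, at 0.063, Heatr1, a ribosome biogenesis factor, at 0.066 and Gimd1 at 0.069, against a median of 0.24. Insig1 was next, at rank 6 of 60 with 0.069. Emp1 was at 5.93 ± 0.338 RPKM in control and 12.4 ± 0.865 after P-Por-Os+US, and Slc20a1 at 0.857 ± 0.0689 and 1.96 ± 0.263 (SD, n = 3 each). Genes listed with folds near the minimum are close to Hmgcs1 by construction of this measure. With all 9 libraries and 27 other genes, the 5 closest to Insig1 were Gm12609 at 0.22, Rsad2, an interferon-induced antiviral gene, at 0.24, Nipal1 at 0.36, Gm34176 at 0.36 and Gm10371 at 0.39, against a median of 0.73. Gm12609 was at 1.28 ± 0.226 RPKM in control, 1.35 ± 0.245 after P-Por-Os and 2.93 ± 0.481 after P-Por-Os+US (SD, n = 3 each). All 28 genes with 9 values, Insig1 among them, had been listed for P-Por-Os+US against control, and 21 also for P-Por-Os against control. Few could thus share the level of Insig1 after P-Por-Os, and closeness to it follows largely from which comparisons listed a gene.

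**Figure D4:**
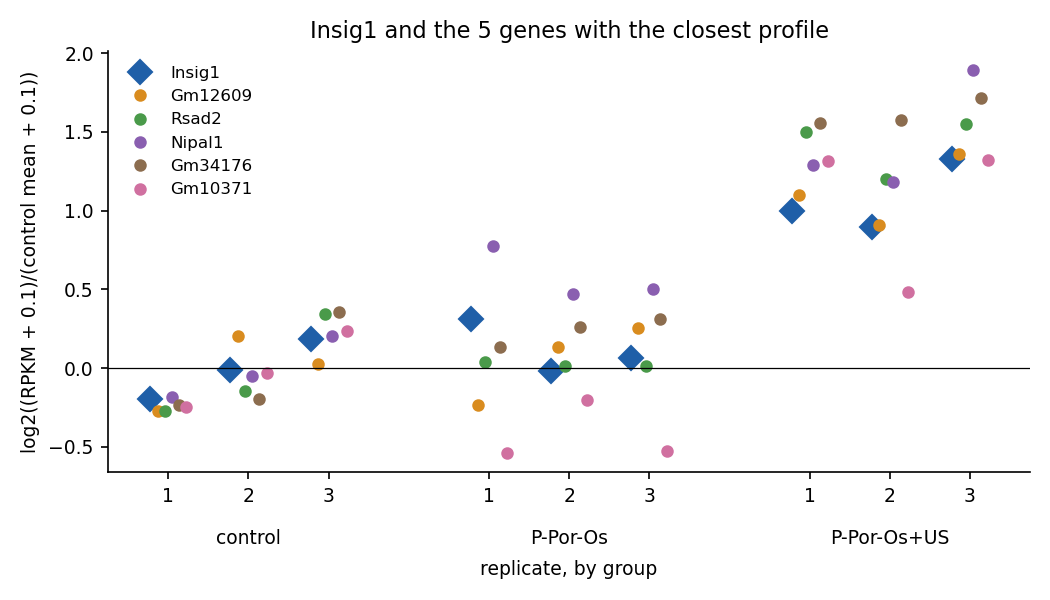
Values of Insig1 (diamonds) and of the 5 genes with the closest profile in the 9 libraries, as log2((RPKM + 0.1)/(control mean + 0.1)), with replicates side by side in each group. Insig1 lies near 0 in control and P-Por-Os and higher in P-Por-Os+US, and Gm12609, the closest at 0.22, lies next to it in P-Por-Os+US.

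No other gene of the sterol lists was listed. Of 21 cholesterol synthesis enzymes, Hmgcs1 was the 1 listed for P-Por-Os+US against control, and 0 were listed in the other comparisons. Of 13 genes of SREBP control and sterol sensing, 1 was listed in each comparison with P-Por-Os+US, Insig1 both times, and 0 for P-Por-Os against control. Of 9 genes of cholesterol uptake and transport, 0 were listed in any comparison. The squalene epoxidase gene Sqle, Srebf2 and Insig2 were among the genes not listed. Over these 43 genes that makes 2, 0 and 1, which include the very genes that were picked for being listed, so nothing is read from these shares beside the 0.403, 1.05 and 0.179 percent of all genes tested. A gene that is not listed may have fallen, or risen by less than the minimum, or not been tested.

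The authors' deposited tables list 0.403 percent of all genes tested for P-Por-Os+US against control, 1.05 percent for P-Por-Os against control and 0.179 percent for P-Por-Os+US relative to P-Por-Os. At such shares a list of this size will often hold no listed gene, so nothing is read from a count of 0. Neighbouring lipid pathways had 0 listed genes in each comparison, with 0 of 16 for fatty acid synthesis, 0 of 8 for targets of the sterol-sensing receptor LXR, and 0 of 7 for ketone body metabolism. The unfolded protein response, another programme of the endoplasmic reticulum, had 0 of 14. Metal response genes had 3 of 8 listed in each comparison with control and 2 of 8 for P-Por-Os+US relative to P-Por-Os, counts of a list chosen with the tables known. Of markers of other cell types, fibroblasts had 0 of 7 listed and endothelium 0 of 6 in each comparison. Macrophages had 1 of 8 listed in each comparison with control, Cd14, at 1.40 ± 0.105 RPKM in control, 4.03 ± 0.246 after P-Por-Os and 3.44 ± 0.156 after P-Por-Os+US (SD, n = 3 each). Its part in the Insig1 and Hmgcs1 values was not tested. Hepatocyte markers had 0 of 10 listed, so their levels, and with them the cell type in the labels, could not be checked here.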

How the data were processed

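Stranded RNA-seq reads of 9 libraries were processed with tools that, per the submitters' processing notes, include fastp 0.23.4, Subread 1.5.1 with featureCounts, and edgeR 3.12.1, on GRCm38. The labels' protocols name both an mRNA library kit and a kit for removal of ribosomal RNA. The aligner, annotation and strand setting of the authors are not stated. The authors deposited RPKM per library for listed genes only, with log2 folds, an F score and p-values with adjusted values, per the file headers. Hmgcs1, Insig1 and all gene lists were chosen with earlier results of these data known, and named genes followed a rule of members, listed pathway genes, nearest folds and the 5 closest profiles. Sqle, Srebf2 and Insig2 were named outside that rule, as examples of genes not listed. Library totals were found as the depth at which RPKM times GENCODE M21 exonic length was whole within 0.05 for values under 400 reads (84.7 to 90.2 percent of values, against 9.21 to 9.84 percent at the median depth tried). The number of genes tested was found from ratios of p to adjusted p. Insig1 after P-Por-Os was tested with limma 3.58.1 in R 4.3.3, with a variance trend, a pseudocount of 0.1 and Benjamini-Hochberg adjustment over 28 genes, all selected for being listed, so adjusted p-values are too small. The script was tested on simulated data. RPKM are not counts, so no count test was run. Alternatives were another pseudocount, a filter of at least 1 RPKM, 6 libraries, no trend, a replicate block, the authors' scaling and each library left out. Some genes of the lists are not reported here and are left out of their counts.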

Additional observations from a re-analysis of the deposited data

How the results depend on the processing

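Of 81 alternative values, 73 stayed within the spread between libraries, on the same side of the threshold or within 1.5 times a count, and 0 changed direction. Many could not change direction. The limma difference of Insig1 is by design the same without a trend, with a block or without a P-Por-Os+US library. The authors' folds were at least 1 on the log2 scale by selection. Where groups do not overlap, leaving out a library cannot reverse a ratio. A pseudocount of 1 lowered the log2 ratios of Insig1 to 0.63 against control and 0.57 against P-Por-Os, which follows from its level near 1 RPKM. With Bonferroni over all genes tested, 1 of the 2 sterol genes remained for P-Por-Os+US against control. A pseudocount of 1 kept 3 of the 5 genes closest to Hmgcs1. Leaving out each library gave log2 ratios of 0.998 to 1.18 for Hmgcs1, 1.04 to 1.30 for Insig1 against control and 0.90 to 1.16 against P-Por-Os, and 0.03 to 0.22 for Insig1 after P-Por-Os alone, where the limma adjusted p stayed above 0.05 in every setting. It gave a ratio of at least 2 for 1 to 2 of the 2 sterol genes listed for P-Por-Os+US against control and for 0 to 1 of the 1 listed relative to P-Por-Os. The 1 and the 0 came without P-Por-Os+US replicate 3, the 0 also without P-Por-Os replicate 2. P-Por-Os against control had no listed sterol gene, so no alternative count could be made. Leaving out a library kept 4 to 5 genes closest to Insig1 and 3 to 5 closest to Hmgcs1, with 3 without control replicate 1.

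Replicate numbers recur across groups, and whether they pair the libraries could not be decided here. Deviations of libraries with a shared number correlated at r from -0.27 to 0.32 over 28 genes. The shared number gave the best match in 9 of 18 cases, each with 3 libraries to choose from. The cases use each pair of groups in both directions and are not independent, so the 9 was not tested against chance. These genes are few and were selected for being listed, so a pairing or a shared batch is not excluded. With a replicate block the limma difference of Insig1 after P-Por-Os was again 0.13, which groups of equal size make certain. Its SE was 0.14, against 0.16 without the block, and the limma adjusted p was 0.42. Mean log2 ratios within numbers were 1.08 for Hmgcs1 and 1.18 for Insig1 against control, and 1.04 for Insig1 against P-Por-Os. Such means are the same under any pairing, so they say nothing about it.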
